A study of Mus musculus with 4 samples.

Results

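Canonical Wnt signalling switches on target genes, and some of these feed back on the pathway itself. A set of 10 feedback and target genes was followed here: Axin2, Lgr6, Bambi, Nkd1, Nkd2, Apcdd1, Rnf43, Znrf3, Notum and Tnfrsf19. They were taken by symbol, and all 10 were found among the 53465 genes counted. RNA came from the ventricles of mice at postnatal day 1. The 2 control libraries carried Ctnnb1 floxP/floxP alleles and were negative for alphaMHC-Cre, and the 2 libraries labelled knockout carried the same floxed alleles and were positive for alphaMHC-Cre, a transgene that drives the Cre recombinase in cardiomyocytes; they are called Cre-positive here. Other cells of the ventricle keep their Ctnnb1, and the groups differ in the transgene as well as in the deletion. The labels do not say whether each library is 1 animal or a pool, nor that the libraries are separate animals, so the tests measure the spread between these libraries.

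In the canonical pathway a Wnt ligand binds a Frizzled receptor and its LRP co-receptor, which halts the destruction complex that otherwise degrades β-catenin, the product of Ctnnb1. β-catenin then enters the nucleus and, with TCF/LEF factors, activates target genes. Because they are activated in this way, the transcripts of direct targets are commonly used to read the activity of the pathway. Many of the direct targets encode inhibitors of it. In the heart the pathway acts in myocytes and in fibroblasts, epicardium, endocardium and valve tissue, and in whole ventricle fewer cells of a type and less RNA per cell cannot be told apart.

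The libraries held 34027143 to 45651797 counts in genes. All 10 cardiomyocyte markers checked, among them Tnnt2 and Myh6, had counts in every library. Ctnnb1 itself was at 409 and 434 CPM (reads of a gene scaled to the library total, here with TMM, edgeR's correction for library composition) in controls 1 and 2. Its level was 527 and 460 CPM in Cre-positive 1 and 2, so the count over the whole gene does not check the labels. Control 1 stood apart in T cell transcripts: the summed level of 12 T cell and thymocyte markers was 401 CPM there and 7.81, 2.84 and 1.89 CPM in control 2 and Cre-positive 1 and 2, where Cd3e, Cd8b1 and Dntt each had a count of 0 in 1 library. Cre-positive 2 was the only library with Xist at a high level (602 CPM against at most 0.327 CPM) and with 0 counts of the Y-linked Kdm5d, which allows up to 0.0882 CPM before TMM scaling. The share of gene counts from mitochondrially encoded genes was 5.25% and 7.65% in controls 1 and 2, against 10.2% and 14.4% in Cre-positive 1 and 2.

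The genes did not all lie on one side. Axin2, Lgr6, Bambi, Rnf43, Notum and Tnfrsf19 lay lower in both Cre-positive libraries than in either control. For Rnf43 and Notum, which had few counts, the exact 95% Poisson intervals of the nearest libraries overlapped. Nkd1, Nkd2 and Apcdd1 lay higher in both, Nkd1 by a very small margin, and Znrf3 overlapped. Over all 18157 genes tested, 29.7% lay lower in both and 26.5% higher in both. In edgeR's quasi-likelihood test, at a p under 0.05 after Benjamini-Hochberg adjustment over all genes, 0 of the 10 passed in either direction, where 0.011% of all genes passed as higher and 0% as lower. Before adjustment, at a p under 0.05, 4 were lower (Axin2, Lgr6, Bambi and Rnf43) and 2 were higher (Nkd2 and Apcdd1), against a background of 11.2% of all genes lower and 11.8% higher. Without control 1 these counts were 3 and 1 (background 3.59% and 4.1%), and without Cre-positive 2 they were 3 and 2 (10.5% and 11.3%). DESeq2 called 3 of them lower (Axin2, Lgr6 and Bambi) and 1 higher (Apcdd1), against 4.43% and 5.58% of the genes it gave an adjusted p, and limma-voom called 0, with the same 4 lower and 2 higher before adjustment apart from Tnfrsf19, which was also lower (10.7% and 11.5% of all genes). The authors' deposited table called the same 4 genes as DESeq2 here, against 4.62% of its genes lower and 5.83% higher. The 10 genes had a median log2 fold change of -0.69, beside -0.021 over all genes tested. With library totals alone these medians were -0.95 and -0.26, and with GC content and length trends taken out they were -0.54 and 0.070. The 10 genes, and the lists below, were chosen with earlier results of these data known. The shares and medians of all genes are therefore given beside them as a description only. The plot of the 10 genes by library shows the split.

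**Figure D1:**
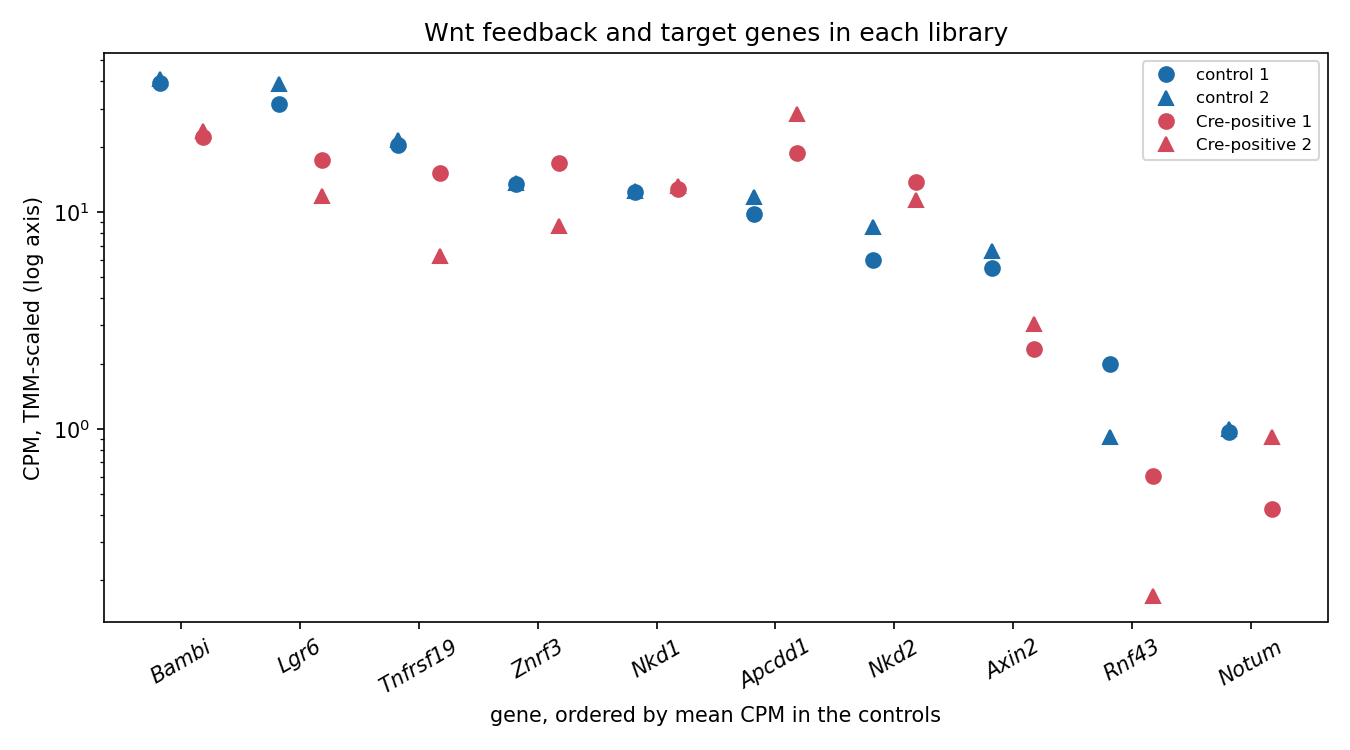
TMM-scaled CPM (log axis) of the 10 genes in each of the 4 libraries, ordered by their mean in the controls; blue marks controls and red Cre-positive libraries, circles library 1 and triangles library 2. Both red points lie below both blue points for Bambi, Lgr6, Tnfrsf19, Axin2, Rnf43 and, barely, Notum. Both lie above them for Apcdd1, Nkd2 and, barely, Nkd1.

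Axin2 encodes a scaffold of the destruction complex that is itself induced by β-catenin and is the most widely used readout of the pathway. The gene (ENSMUSG00000000142.15) is on chromosome 11, forward strand, at 108920349 to 108950783 (GRCm38). Controls 1 and 2 had 5.53 and 6.62 CPM and Cre-positive 1 and 2 had 2.35 and 3.04 CPM, from counts of 258, 324, 104 and 90. Both Cre-positive libraries were below both controls, with group means of 6.08 ± 0.770 and 2.69 ± 0.494 CPM (SD, n = 2 each). Axin2 thus had a log2 fold change of -1.18 ± 0.32 (SE), a fitted ratio of 0.443 (adjusted p = 0.123 in edgeR over all genes). It ranged from -1.43 to -0.86 over 14 alternative settings, -0.86 being the value with GC content and length trends taken out, and the adjusted p ranged from 0.0257 (DESeq2) to 0.617. In the authors' deposited table its log2 fold change was -1.16 (adjusted p = 0.0253).

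Axin1, the constitutive paralogue of Axin2, had a smaller difference. It was at 51.7 and 47.7 CPM in the controls, against 44.4 and 32.3 CPM in the Cre-positive ones. That is -0.37 ± 0.20 on the log2 scale (SE, adjusted p = 0.316 in edgeR). The value became -0.0066 with GC content and length trends taken out and -0.15 without Cre-positive 2. It was larger, at -0.57, without Cre-positive 1, and -0.60 with library totals alone, where the median of all genes was -0.26. Per kilobase of exonic sequence, Axin1 transcripts outnumbered those of Axin2 by 13.4 and 10.4 times in controls 1 and 2 and by 27.2 and 15.2 times in Cre-positive 1 and 2. Both Cre-positive ratios were above both control ratios, though control 1 and Cre-positive 2 were close.

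Bambi encodes a transmembrane pseudoreceptor that dampens TGF-β signalling. It gave the tightest replicates among Axin2, Lgr6, Bambi and Rnf43. Bambi (ENSMUSG00000024232.1) was at 39.1 and 41.1 CPM in the controls, against 22.1 and 23.5 CPM in the Cre-positive ones. The gap between the groups was far wider than the gap within either. In edgeR it came to -0.81 ± 0.16 on the log2 scale (SE; adjusted p = 0.0925), between -1.06 and -0.72 over the alternatives, and it was -0.79 with GC content and length trends taken out. The authors' deposited table gave Bambi -0.79 (adjusted p = 0.00631).

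Of the other genes of the set, Bambi had the profile nearest to that of Axin2. Profiles of log2(CPM + 1) over the 4 libraries, centred on their mean, were compared by Euclidean distance among 12915 protein-coding genes with a mean of at least 1 CPM. The nearest to Axin2 were Tcirg1, Nlgn2, Phf1, Dock6 and Mov10, at distances of 0.032 to 0.11, and Tcirg1, a subunit of the vacuolar proton pump, had 40.6 and 49.0 CPM in the controls, against 20.6 and 24.9 CPM in the Cre-positive ones. Bambi ranked 45 of 12914, with 58 genes within a distance of 0.25. Lgr6 ranked 1508, Tnfrsf19 5942, Nkd1 6069, Znrf3 7846, Nkd2 12127 and Apcdd1 12585, while Rnf43 and Notum were under the level set. The added 1 CPM shrinks the differences of low genes such as Axin2 more than those of abundant genes, so distances and ranks can depend on it. With 4 libraries these distances are a description only.

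Lgr6 encodes a receptor for R-spondins, the secreted proteins that strengthen Wnt signals by removing RNF43 and ZNRF3 from the cell surface. The gene (ENSMUSG00000042793.13) is on chromosome 1, reverse strand, at 134983301 to 135105276. Lgr6 was at 31.5 and 38.9 CPM in the controls, against 17.3 and 11.8 CPM in the Cre-positive ones. The lower control was well above the higher Cre-positive library. edgeR gave -1.27 ± 0.25 on the log2 scale (SE; adjusted p = 0.0925), with values from -1.52 to -1.02 over the alternatives. The authors' deposited table gave Lgr6 -1.25 (adjusted p = 8.59e-04).

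Lgr4 and Lgr5 encode the other LGR receptors for R-spondins. Lgr4, the more abundant of them, was at 48.7 and 50.8 CPM in the controls, against 71.4 and 48.7 CPM in the Cre-positive ones, which is 0.27 ± 0.22 on the log2 scale (SE; adjusted p = 0.491 in edgeR) with overlapping groups. Without Cre-positive 2 it was 0.53, and without Cre-positive 1 it was 0.020. Per kilobase, Lgr4 exceeded Lgr6 by 1.80 and 1.52 times in controls 1 and 2 and by 4.81 and 4.79 times in Cre-positive 1 and 2. Lgr5 was barely detected, at 0.129, 0.0817, 0.135 and 0.0676 CPM in the same order, and was too low to be tested. Of the ligands, Rspo1 was at 4.44 and 5.03 CPM in the controls, against 3.47 and 4.97 CPM in the Cre-positive ones, with -0.17 ± 0.32 on the log2 scale (SE; adjusted p = 0.791 in edgeR). Rspo2 and Rspo3 had log2 fold changes of -0.15 and 0.14 with overlapping groups, and Rspo4 had counts in 1 library only.

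Rnf43 and Znrf3 encode related transmembrane ubiquitin ligases that clear Frizzled receptors from the cell surface, and both are known as Wnt-induced brakes. Rnf43 (ENSMUSG00000034177.15, forward strand of chromosome 11, 87662722 to 87735539) was low, and close to the limit of detection in Cre-positive 2. The counts were 93 and 45 in controls 1 and 2, then 27 and 5 in Cre-positive 1 and 2. These correspond to 1.99, 0.920, 0.609 and 0.169 CPM, so both Cre-positive libraries were below both controls. The exact 95% Poisson interval was 0.671 to 1.23 CPM in control 2 and 0.401 to 0.886 CPM in Cre-positive 1, so the intervals of these nearest libraries overlapped. Its log2 fold change was -1.84 ± 0.69 (SE; adjusted p = 0.186 in edgeR). Control 1, the library with the T cell transcripts, held the highest value, and without it the log2 fold change was -1.19 (adjusted p = 0.749); without control 2 it was -2.29, and without Cre-positive 1 or 2 it was -3.03 and -1.24. The part of the T cell transcripts in the level of Rnf43 was not tested.

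Znrf3 (ENSMUSG00000041961.14; reverse strand of chromosome 11, 5276324 to 5444847) was at 13.5 and 13.6 CPM in the controls, against 16.8 and 8.62 CPM in the Cre-positive ones. The controls lay between the 2 Cre-positive libraries. On the log2 scale the difference was -0.088 ± 0.34 (SE; adjusted p = 0.902 in edgeR), and it was 0.32 without Cre-positive 2, -0.60 without Cre-positive 1 and 0.11 with GC content and length trends taken out. Per kilobase, Znrf3 exceeded Rnf43 by 5.63 and 12.3 times in controls 1 and 2 and by 23.0 and 42.4 times in Cre-positive 1 and 2, so Znrf3 was the main transcript of the pair in every library.

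Nkd1 and Nkd2 encode the Naked cuticle homologues, which bind Dishevelled and restrain Wnt signalling. They are paralogues. Nkd1 (ENSMUSG00000031661.12; forward strand of chromosome 8, 88521354 to 88594884) was at 12.4 and 12.5 CPM in the controls, against 12.8 and 13.2 CPM in the Cre-positive ones. Its log2 fold change was 0.065 ± 0.21 (SE; adjusted p = 0.881 in edgeR). The groups were separate by less than 1 CPM. With library totals alone the value was -0.18, where the median of all genes was -0.26, and with GC content and length trends taken out it was 0.35.

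Nkd2 (ENSMUSG00000021567.15; reverse strand of chromosome 13, 73818534 to 73847631) was at 5.98 and 8.56 CPM in the controls, against 13.7 and 11.4 CPM in the Cre-positive ones. Both Cre-positive libraries were above both controls, by 0.78 ± 0.28 on the log2 scale (SE; adjusted p = 0.177 in edgeR). Over the alternatives the value was 0.55 to 1.09. Per kilobase, Nkd2 was at 0.457 and 0.649 of the level of Nkd1 in controls 1 and 2 and at 1.01 and 0.814 of it in Cre-positive 1 and 2. The ratios of the 2 groups did not overlap. With 2 libraries a group, an exact permutation test of this ratio cannot give a two-sided p below 0.333.

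Apcdd1 encodes a membrane glycoprotein that binds Wnt ligands and LRP co-receptors and inhibits signalling. Apcdd1 (ENSMUSG00000071847.12) was at 9.82 and 11.7 CPM in the controls, against 18.6 and 28.3 CPM in the Cre-positive ones. It was the gene with the largest difference upward of the 10. Its log2 fold change was 1.13 ± 0.27 (SE; adjusted p = 0.104 in edgeR), a fitted ratio of 2.18, and over the alternatives it lay between 0.80 and 1.45. DESeq2 gave an adjusted p of 0.00595, and the authors' deposited table gave Apcdd1 a log2 fold change of 1.15 (adjusted p = 0.00577).

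Tnfrsf19, also called Troy, encodes a receptor of the tumour necrosis factor family that is a Wnt target in several tissues. The gene (ENSMUSG00000060548.13) is on chromosome 14, reverse strand, at 60963875 to 61046490. It was at 20.3 and 21.4 CPM in the controls, against 15.1 and 6.26 CPM in the Cre-positive ones. Both were below both controls, but they differed from each other by 2.41 times. The difference for Tnfrsf19 was -0.96 ± 0.41 on the log2 scale (SE; adjusted p = 0.229 in edgeR), which was -0.46 without Cre-positive 2 and -1.68 without Cre-positive 1.

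Notum encodes a secreted enzyme that removes the lipid from Wnt ligands and so inactivates them. Notum (ENSMUSG00000042988.10; reverse strand of chromosome 11, 120653788 to 120661175) had 45 and 49 counts in controls 1 and 2, then 19 and 27 in Cre-positive 1 and 2, which give 0.965, 1.00, 0.429 and 0.913 CPM. Cre-positive 2 was within counting error of the controls (exact 95% Poisson interval 0.602 to 1.33 CPM). Notum came to -0.57 ± 0.48 on the log2 scale (SE; adjusted p = 0.513 in edgeR), or -0.054 without Cre-positive 1 and -1.18 without Cre-positive 2. Notum shares 708 exonic bases with Notumos on the opposite strand, which had 13 to 28 counts, and no source used here gives the strand setting of the counting, so its level is uncertain.

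**Figure D2:**
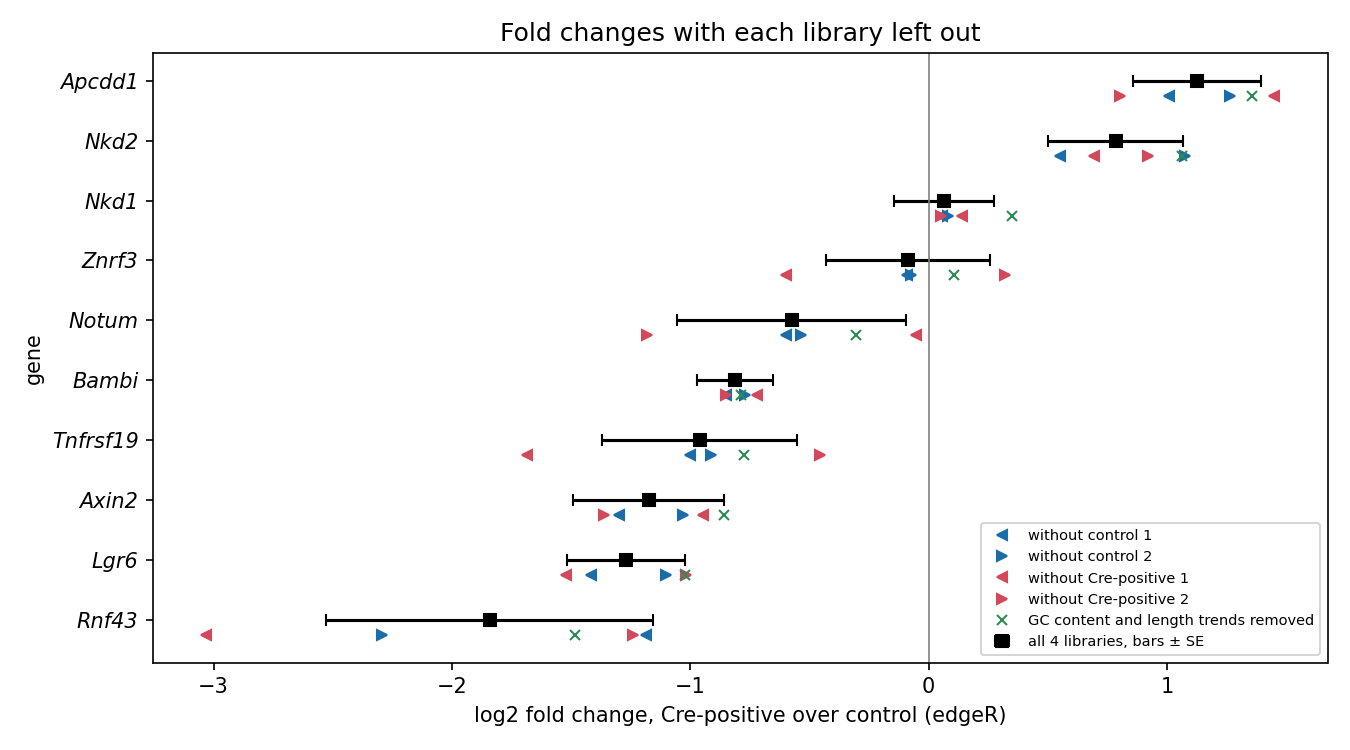
edgeR log2 fold changes of the 10 genes, Cre-positive over control (horizontal axis); black squares with bars are the fit to all 4 libraries ± SE, blue and red triangles the fits without 1 control or 1 Cre-positive library, and green crosses the fit with GC content and length trends taken out. Znrf3 is the gene whose points fall on both sides of 0, and Rnf43 and Tnfrsf19 have the widest ranges, from -3.03 to -1.19 and from -1.68 to -0.46.

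The spread between replicates differed from gene to gene. Between the controls, 8 of the 10 genes differed by at most 0.30 on the scale of log2(CPM + 0.5), the exceptions being Nkd2 at 0.48 (control 2 higher) and Rnf43 at -0.81 (control 2 lower). On the same scale Cre-positive 2 differed from Cre-positive 1 by -1.21 for Tnfrsf19 and -0.93 for Znrf3. Of all genes tested, 3.18% and 7.10% reached or passed these sizes. Rnf43, Lgr6 and Nkd2 were at -0.73, -0.53 and -0.26. Apcdd1, Notum and Axin2 went the other way, at 0.59, 0.61 and 0.32. The added 0.5 CPM shrinks the differences of low genes. By plain ratio Rnf43 was 3.60 times as high in Cre-positive 1 as in Cre-positive 2, and Notum 2.13 times as high in Cre-positive 2 as in Cre-positive 1. Bambi and Nkd1 hardly differed, at 0.085 and 0.045. Cre-positive 2 is the library with the Xist transcripts, the highest mitochondrial share and the fewest counts. The part of these in the levels of Tnfrsf19, Znrf3 and Rnf43 was not tested.

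Levels can be compared between genes only per length. In CPM per kilobase of exonic sequence, the controls ranked Bambi first at 7.91, then Lgr6 at 5.14, Tnfrsf19 at 4.40, Nkd1 at 2.72, Znrf3 at 1.72, Nkd2 at 1.51, Axin2 at 1.10, Apcdd1 at 0.834, Notum at 0.408 and Rnf43 at 0.222 (means of 2). Of these neighbours, Znrf3 and Nkd2 overlapped between libraries. In the Cre-positive libraries Bambi was again first at 4.50 and Axin2, Notum and Rnf43 were last at 0.489, 0.279 and 0.0593. The 6 genes between them, Nkd1 at 2.85, Nkd2 at 2.60, Tnfrsf19 at 2.25, Lgr6 at 2.12, Apcdd1 at 1.82 and Znrf3 at 1.61, overlapped their neighbours, so their order there is not resolved. Lgr6 stood above Nkd2 in both controls and below it in both Cre-positive libraries, as the plot of levels per length shows.

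**Figure D3:**
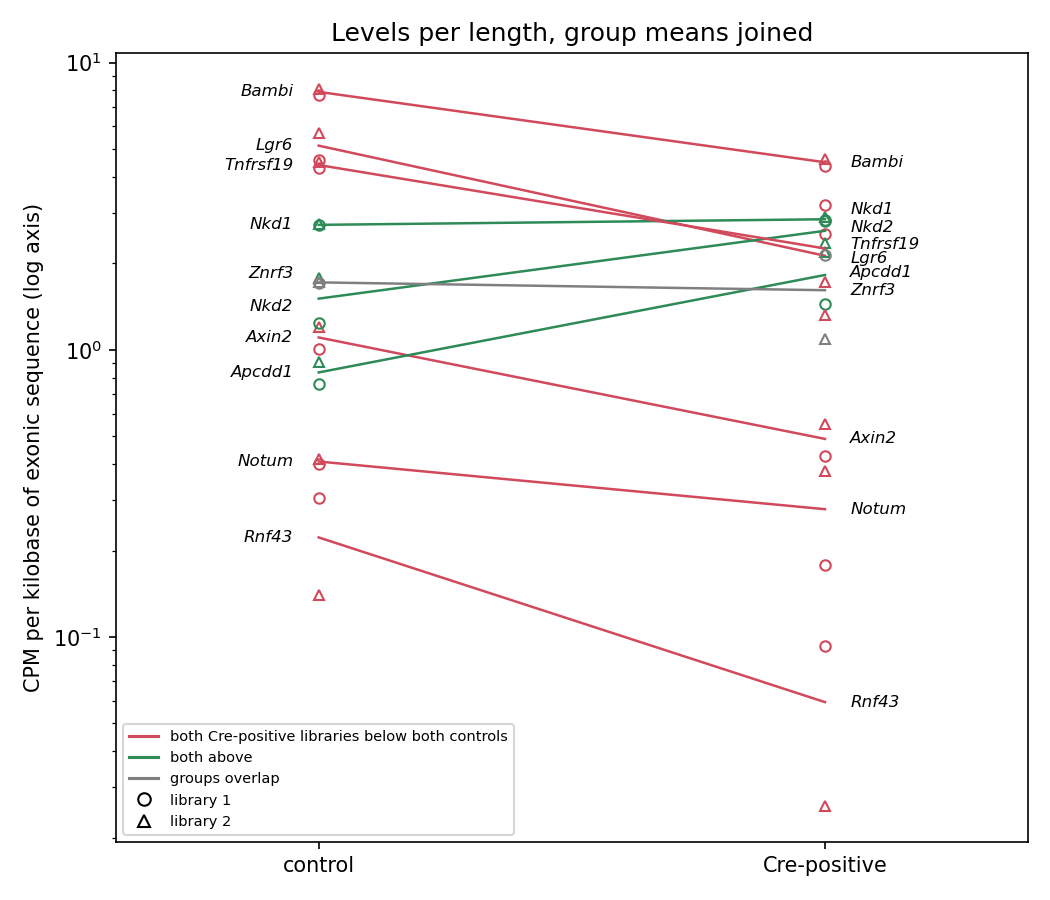
CPM per kilobase of exonic sequence (log axis) in controls (left) and Cre-positive libraries (right); lines join group means, open circles are library 1 and open triangles library 2. Bambi stays highest on both sides (7.91 and 4.50), Rnf43 stays lowest (0.222 and 0.0593), and the line of Nkd2 rises from below those of Lgr6 and Tnfrsf19 to above them.

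Promoter windows were searched for the core letters recognised by TCF/LEF factors, because these genes are grouped by their response to β-catenin. RefSeq promoters on GRCm38.p6 reach from 250 bases before a start site to 50 after it, and 6 of the 10 genes had 8 windows. The motifs were CTTTGAT and CTTTGAA on both strands. Of the 8 windows 1 held CTTTGAT and 0 held CTTTGAA, while 3.73% and 5.14% of all 32851 windows held them. The match was in the window of the downstream of 2 start sites of Tnfrsf19. The 250 bases before the start are printed 5′ to 3′ for Axin2 and Lgr6, which lay lower, for Nkd2, which lay higher, and for that start of Tnfrsf19, with matched letters in capitals. They lie at chr11:108920099-108920348 (forward strand, Axin2), chr1:135105277-135105526 (reverse, Lgr6), chr13:73847632-73847881 (reverse, Nkd2) and chr14:61037988-61038237 (reverse, Tnfrsf19).
Axin2: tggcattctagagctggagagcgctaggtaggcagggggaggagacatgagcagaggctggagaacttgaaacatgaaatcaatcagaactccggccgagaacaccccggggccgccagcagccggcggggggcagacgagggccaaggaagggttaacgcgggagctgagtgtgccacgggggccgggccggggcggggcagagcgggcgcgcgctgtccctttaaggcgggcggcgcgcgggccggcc
Lgr6: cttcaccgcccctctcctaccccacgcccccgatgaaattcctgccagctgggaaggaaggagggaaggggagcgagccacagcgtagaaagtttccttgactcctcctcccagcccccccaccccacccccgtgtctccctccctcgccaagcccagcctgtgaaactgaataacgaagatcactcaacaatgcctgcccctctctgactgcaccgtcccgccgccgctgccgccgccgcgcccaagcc
Nkd2: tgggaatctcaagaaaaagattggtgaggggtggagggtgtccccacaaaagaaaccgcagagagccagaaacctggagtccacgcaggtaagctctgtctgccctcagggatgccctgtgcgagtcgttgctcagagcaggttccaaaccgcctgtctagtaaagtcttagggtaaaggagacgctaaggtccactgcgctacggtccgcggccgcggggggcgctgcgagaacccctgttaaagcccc
Tnfrsf19: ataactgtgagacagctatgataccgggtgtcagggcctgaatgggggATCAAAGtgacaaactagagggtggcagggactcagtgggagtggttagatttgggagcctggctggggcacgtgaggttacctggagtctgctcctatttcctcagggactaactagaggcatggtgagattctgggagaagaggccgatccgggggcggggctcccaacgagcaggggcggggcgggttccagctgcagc
In the Tnfrsf19 window the capitals ATCAAAG are the reverse complement of CTTTGAT and begin 202 bases before the start site. The letters of Axin2, Lgr6 and Nkd2 held neither motif in this window. GC content was 69.2% for Axin2, 65.2% for Lgr6, 58.4% for Nkd2 and 59.2% for Tnfrsf19.

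Other target genes of the pathway were counted in the same way. Of 46 listed, 41 were tested, and 14 lay lower in both Cre-positive libraries and 2 higher in both, where 29.7% and 26.5% of all genes did. edgeR called 0 at an adjusted p under 0.05, and before adjustment 2 were higher and 7 lower (background 11.8% and 11.2%). Those counts were 0 and 2 without control 1 (4.1% and 3.59%), and 6 and 9 without Cre-positive 1 (16.1% and 13.5%). DESeq2 called 3 of them lower, Lef1 among them, and 0 higher (4.43% and 5.58% of all genes). Lef1 and Tcf7 are among the 7 lower before adjustment, and are counted again with the TCF/LEF factors below. Both were highest in control 1, the library with the T cell transcripts. Their log2 fold changes of -3.73 and -4.41 became -0.74 and -0.75 without it. The median log2 fold change of the 41 genes was -0.16, beside -0.021 over all genes tested. With GC content and length trends taken out it was 0.058, beside 0.070. Jag1, a Notch ligand, was at 29.0 and 36.4 CPM in the controls, against 18.0 and 20.6 CPM in the Cre-positive ones (log2 fold change -0.76 ± 0.20, SE). Dkk3, a secreted protein of the Dickkopf family, was at 126 and 216 CPM against 81.9 and 93.6 CPM (-0.97 ± 0.28). Kremen1, a Dickkopf receptor with the highest mean CPM of the list, was at 156 and 133 CPM against 126 and 111 CPM (-0.29 ± 0.18). Ccnd1, the cell cycle gene cyclin D1, lay the other way, at 26.9 and 43.0 CPM in the controls, against 56.1 and 61.9 CPM in the Cre-positive ones. Of 15 cell cycle genes, 14 lay higher in both Cre-positive libraries, and the summed level was 271 and 349 CPM in the controls against 649 and 771 CPM. The part of these in the level of Ccnd1 was not tested. Sp5 also lay higher in both Cre-positive libraries, at very low counts. It had 6 and 10 counts in controls 1 and 2, then 12 and 30 in Cre-positive 1 and 2. That is 0.129 and 0.204 CPM in the controls, against 0.271 and 1.01 CPM in the Cre-positive ones (log2 fold change 1.88 ± 0.75, SE).

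TCF/LEF factors and their cofactors all had a negative log2 fold change with the 4 libraries, 14 of 14 tested, with a median of -0.49. edgeR called 0 at an adjusted p under 0.05, and 0 were higher and 7 lower before adjustment, beside 11.2% of all genes lower. Among them DESeq2 called 4 lower, beside 4.43%. Without control 1, the library with the T cell transcripts, 1 was lower before adjustment (3.59%), and the median was -0.43. With GC content and length trends taken out 4 were lower (8.24%), 10 of the 14 were negative and the median was -0.22. Tle2, a corepressor of the Groucho family, was at 37.9 and 44.6 CPM in the controls, against 16.9 and 11.3 CPM in the Cre-positive ones. Its log2 fold change was -1.55 ± 0.24 (SE, adjusted p = 0.0925 in edgeR), or -1.11 with GC content and length trends taken out. Bcl9, which links β-catenin to its coactivator Pygopus, was at 81.4 and 78.0 CPM against 54.0 and 37.3 CPM (-0.80 ± 0.21, or -0.47 with GC content and length trends taken out). Chd8, with the highest mean CPM of the list, had -0.24 ± 0.21. Lef1 and Tcf7, which T cells also express, were at 9.16 and 93.0 CPM in control 1, the library with T cell transcripts, and at 0.613 and 3.84 CPM in control 2. In Cre-positive 1 and 2 Lef1 had 0.361 and 0.372 CPM and Tcf7 2.32 and 2.23 CPM. Their log2 fold changes of -3.73 and -4.41 became -0.74 and -0.75 without control 1.

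Ligands, receptors and the destruction complex had medians near that of all genes in the filtered edgeR fit to the 4 libraries. Some of these medians moved when 1 library was left out, and that of the ligands also moved with the filter. For ligands and secretion genes, 13 of 21 were tested and the median was -0.041 on the log2 scale. With no filter on low counts it was -0.57 over 19 genes, beside -0.078 over all genes. In DESeq2 it was -0.54 over 19, beside -0.052. edgeR called 0 of them, with 1 higher and 2 lower before adjustment, beside 11.8% and 11.2% of all genes. DESeq2 called 0, beside 5.58% of its genes higher and 4.43% lower. Wnt6 had only 31 and 11 counts in controls 1 and 2, then 1 and 2 in Cre-positive 1 and 2. Wnt9a had a log2 fold change of -0.73 ± 0.24. Wls, which carries Wnt ligands to the cell surface and had the highest mean CPM, was at 70.1 and 91.0 CPM against 144 and 107 CPM.

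Receptors had a median of -0.073 over 15 tested. edgeR called 0, with 0 higher and 1 lower before adjustment, beside 11.8% and 11.2% of all genes. DESeq2 called 0, beside 5.58% of its genes higher and 4.43% lower. Fzd8 had -0.47 ± 0.18, Ryk 0.33 ± 0.15 and Fzd4, with the highest mean CPM, 0.045 ± 0.16. Destruction complex and Dishevelled genes had a median of -0.087 over 14 tested. edgeR called 0 (0 higher and 3 lower before adjustment) and DESeq2 called 1 lower, Dvl2, beside 11.2% and 4.43% of all genes lower. Before adjustment 8 were lower without Cre-positive 1 (13.5%) and 1 without control 1 (3.59%), and 3 were higher without Cre-positive 2 (11.3%). Dvl2 was at 22.7 and 24.1 CPM against 12.8 and 11.8 CPM (-0.93 ± 0.19), Dvl1 had -0.59 ± 0.16, and the kinase gene Csnk1a1, with the highest mean CPM, had 0.45 ± 0.22. R-spondin and LGR genes had a median of -0.0048 over 4 tested of 6. edgeR called 0 of these, with 0 at a p under 0.05 before adjustment, and DESeq2 0. With GC content and length trends taken out, the median of all genes was 0.070. In that fit the medians were 0.025 for ligands, 0.16 for receptors, 0.064 for the destruction complex and 0.056 for R-spondins and LGR genes. With each library left out in turn, the ligand median lay between -0.53 (without Cre-positive 1) and 0.065 (without control 2), and it was -0.45 without Cre-positive 2. The receptor median lay between -0.12 and 0.075. For the destruction complex the median was -0.45 without Cre-positive 1 and 0.23 without Cre-positive 2, and for R-spondins and LGR genes -0.24 and 0.50.

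**Figure D4:**
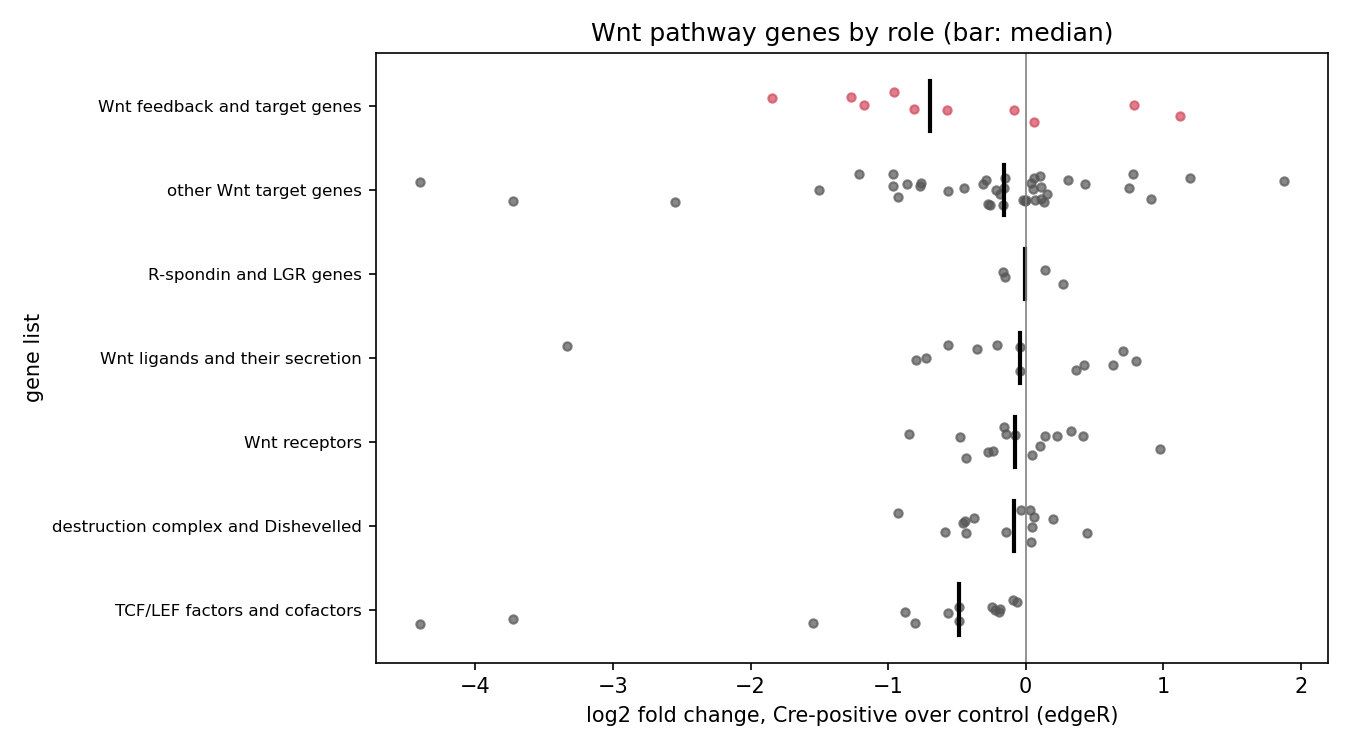
edgeR log2 fold changes, Cre-positive over control, of the tested genes of each Wnt list (1 point a gene, black bars are medians; vertical scatter within a row has no meaning). The 10 feedback and target genes in red have a median of -0.69 and TCF/LEF factors and cofactors -0.49 in this fit; the points at -3.73 and -4.41 are Lef1 and Tcf7, which appear in 2 lists.

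Markers of the other cells of the ventricle were read beside these values. Over all genes tested, 29.7% lay lower in both Cre-positive libraries and 26.5% higher in both, so a few genes of each list are expected there. The summed level of 10 fibroblast markers was 3011 and 4715 CPM in the controls and 4782 and 4137 CPM in the Cre-positive libraries, with 2 of 10 higher in both and 0 lower in both. For 10 epicardial markers it was 174 and 168 against 186 and 195 CPM, with 1 of 10 higher in both and 0 lower, and for 10 valve mesenchyme markers 319 and 443 against 482 and 325 CPM, with 3 of 10 higher in both and 0 lower. Smooth muscle and pericyte markers had 5 of 10 lower and 0 higher in both, at 884 and 908 against 884 and 650 CPM, macrophage markers 6 of 10 lower and 1 higher in both, at 256 and 191 against 148 and 203 CPM, and Schwann cell markers 3 of 7 tested lower and 1 higher in both, at 33.6 and 39.0 against 27.4 and 24.4 CPM. Endothelial markers were at 1537 and 1676 against 1457 and 1902 CPM, with 3 of 10 lower and 0 higher in both, and erythroid markers at 1092 and 1123 against 765 and 662 CPM, with 5 of 7 lower and 1 higher in both. The 10 cardiomyocyte markers summed to 64980 and 58712 against 78811 and 86747 CPM, with 5 higher and 0 lower in both. All markers of these lists but the T cell ones had counts in every library. Their part in the levels of Axin2, Lgr6, Bambi, Rnf43, Notum, Tnfrsf19, Nkd2 and Apcdd1 was not tested.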

How the data were processed

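Per the submitters' processing notes, the tools were STAR 2.5.3a for alignment, on GRCm38, and HTSeq 0.6.1 for counting reads of these stranded, polyA-enriched libraries. No source used here gives the annotation or the strand setting. The deposited counts are whole reads per gene without scaling. The log2 fold changes and adjusted p-values quoted from the authors' deposited table were made with DESeq2 1.18, per the same notes, with settings not stated; its 4 columns of normalized values per sample were not used. Of 53465 genes, 53360 were matched by identifier to GENCODE M21 for symbols, positions and lengths. The 5 HTSeq summary categories were left out (reads with several places were 19.4% to 29.7%). A count of 0 allows 0.0657 to 0.0882 CPM; intervals cover counting error only.

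Counts were fitted in R 4.3.3 with edgeR 4.0.16 (quasi-likelihood test, filterByExpr, TMM factors 0.869 to 1.10), no covariates, over 18157 genes, with a threshold of 0.05 on Benjamini-Hochberg adjusted p. DESeq2 1.42.0 and limma 3.58.1 (voom) were alternatives, with other scalings, filters, a replicate block, per-library trends on GC content and length, and each library left out.

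The 10 genes and all lists were chosen with earlier results of these data known. From each pathway list the 2 genes of smallest p and the most abundant were named, besides Ctnnb1, Axin1 and LGR and R-spondin genes. Ccnd1, Sp5, Lef1, Tcf7 and Ryk were added after their values were seen.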

Additional observations from a re-analysis of the deposited data

How the results depend on the processing

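Of the 10 genes, 8 kept their direction in all 14 alternatives, and none of the 10 was called by edgeR except Lgr6 when no filter on low counts was used. Nkd1 turned to -0.18 with library totals alone, and Znrf3 to 0.11 and 0.055 with GC content and length trends removed (without and with the replicate block) and, over the fits with each library left out, lay between -0.60 and 0.32; the cause was not tested. Over all genes edgeR called 2 higher and 0 lower, against 951 and 755 with DESeq2, 0 and 0 with limma-voom, 313 and 241 without a filter, 9 and 9 with the replicate block, 0 and 0 with that block and GC content and length trends removed, and 0 to 9 and 0 to 30 with each library left out. Among the 10 genes DESeq2 called 1 higher and 3 lower, and edgeR without a filter called 0 higher and 1 lower. Before adjustment, library totals alone left 1 of the 10 higher (6.3% of all genes), and leaving out each library gave 1 to 2 higher and 3 to 6 lower (4.1% to 16.1% and 3.59% to 13.5% of all genes). The median of the 10 was -0.95 with library totals, -0.54 with GC content and length trends removed, -0.57 with the replicate block added to that, and -0.72 to -0.65 with each library left out. Where a library was left out, the lone library of its group is assumed to vary like the other group. Replicate numbers are not said to pair libraries, and same-numbered libraries did not deviate together (r = -0.12 over 18157 genes), so the replicate block is only an alternative; with it 0 of the 10 were called. Depth limits Rnf43 and Notum, with 5 to 93 counts a library.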
